A study of Mus musculus with 6 samples.

Results

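The endoderm compared here is the set of cells in the E4.75 and E5.0 mouse embryo libraries that carried the uptake receptor transcripts of visceral endoderm. A cell was kept with at least 1500 genes detected and at most 15% of its UMIs (unique molecular identifiers, the counted molecules) from mitochondrial genes. Cells were chosen by their own measured levels per 10000 UMIs. The sum of Cubn, Lrp2, Dab2 and Amn had to reach 15, and the sum of the epiblast genes Pou5f1, Slc7a3, Pim2 and L1td1 had to stay under 5. The sum of Lama1, Lamb1, Lamc1, Col4a1 and Col4a2 could not exceed that of Cubn, Apoa1, Ttr, Apoc2 and Apob, a criterion meant to leave out parietal cells. The rule found 665 of 2548 kept cells at E4.75 and 1784 of 5504 at E5.0, in all 2449 of the 8052 kept cells of both libraries and of the 21856 kept cells of the series.

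The series followed mouse embryos from E3.5 to E5.5 with 10x single-cell RNA sequencing in 6 libraries, 1 per stage. In both groups the dams were B6SJLF1/J females, 7 weeks old, and the sires B6CBAF1/J, with no genetic or drug treatment named in the labels. They were dissected from the uterus, dissociated with Accumax and DNase, and left unfiltered, where the libraries of E3.5, E4.5 and the last stage were passed through a 20 µm filter. With 1 library per stage, the stage and the library cannot be told apart, and no test between stages was made. The sources used here do not give how many embryos entered each library. Intervals in square brackets are exact 95% intervals and cover counting error only.

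After implantation the primitive endoderm of the blastocyst gives rise to visceral endoderm, which covers the epiblast and the extraembryonic ectoderm, and to parietal endoderm, which lines the trophoblast and lays down a thick basement membrane. Visceral endoderm is an absorptive epithelium that takes up maternal proteins through cubilin and megalin, and it secretes carrier proteins and lipoproteins much as the later yolk sac and liver do. Part of it, the anterior visceral endoderm, secretes inhibitors of NODAL and WNT signalling that pattern the epiblast below.

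The genes of the rule are a description, since they selected the cells. Cubilin (Cubn) was at 4722 CPM at E4.75 (counts summed over the cells and scaled to a total of 1000000) and 2810 at E5.0, and megalin (Lrp2) at 4958 and 2865. The adaptor Dab2 was at 3074 and 2538 CPM, and amnionless (Amn), which carries cubilin to the surface, at 909 and 1002. The lipid and hormone carriers in the rule were all higher at E5.0. Apoa1 was at 216 and 1003 CPM, Apoc2 at 215 and 952, Ttr at 342 and 977, and Apob at 282 and 548. The 5 laminin and collagen IV genes were all lower, from Lama1 at 282 and 128 CPM to Lamc1 at 326 and 251. Near the thresholds there were few cells by receptor sum. At E4.75, 3 cells lay between 14 and 15 and 1 between 15 and 16, and at E5.0 these numbers were 3 and 4. Between 4 and 5 on the epiblast sum lay 76 cells at E4.75 and 79 at E5.0, and between 5 and 6 lay 29 and 18.

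The endoderm label was checked against markers outside the rule: 7 of 8 endoderm markers (among them Gata4, Gata6, Sox17, Foxa2, Hnf4a and Apoe) were at 10 CPM or more at E4.75, where Trf was at 6.51 CPM, and all 8 at E5.0. Of 5 parietal endoderm markers 3 were at 10 CPM or more at each stage, namely Srgn at 937 and 870 CPM, Pth1r at 140 and 80.3 and Fst at 32.0 and 29.2, whereas Thbd and Plat were at 0.683 to 5.41 CPM. Trophoblast markers summed to 137 CPM at E4.75 and 193 at E5.0, against 1747 and 1678 in trophoblast cells, and 5 of 10 reached 10 CPM at each stage. Markers of uterine epithelium summed to 24.2 and 20.2 CPM, of decidua and stroma to 1.53 and 1.00, of blood and immune cells to 0.683 and 0.468, of endothelium to 10.2 and 5.18, and of red cells to 0.884 and 0.501. Giant cell markers summed to 8.51 and 11.7 CPM. Epiblast markers outside the rule summed to 1177 and 1188 CPM, against 3050 and 3168 in epiblast cells, and 4 of 8 reached 10 CPM at each stage. The most abundant of them gave 865 and 820 CPM.

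Depth differed between the stages. The endoderm cells held 24900658 UMIs at E4.75 and 29933758 at E5.0, with medians of 32767 and 15316 UMIs and 6625 and 4668.5 genes per cell, and mitochondrial shares of 5.07% and 4.92%. The libraries shared 5 barcodes, none of them an endoderm cell in either. The share of endoderm among kept cells was 26.1% [24.4, 27.9] at E4.75 and 32.4% [31.2, 33.7] at E5.0. That gap came with the parietal criterion, which left out 402 of the 1067 cells that passed the other criteria at E4.75 (37.7%) and 552 of 2336 at E5.0 (23.6%). Without it the shares were 41.9% and 42.4%.

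Of 8730 genes at 10 CPM or more at either stage, 131 were at least 2-fold higher at E5.0 by CPM (1.5%) and 118 at least 2-fold lower (1.35%). Scaled by the median of ratios in place of the total, 183 were higher and 75 lower. The median gene had a log2 ratio of CPM + 10 of -0.07 (E5.0 over E4.75). Epiblast cells of the same libraries had 99 of 8395 genes higher (1.18%) and 384 lower (4.57%), and trophoblast cells had 123 of 7870 higher (1.56%) and 263 lower (3.34%). Many genes reach 10 CPM at 1 stage only, and such genes tend to differ by construction. Among the 8173 genes at 10 CPM or more at both stages, 67 were at least 2-fold higher (0.820%) and 60 lower (0.734%).

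Some differences were common to all the lineages. Of the 131 genes higher in endoderm, 65 could be measured in epiblast cells, where 13 were higher and 5 lower, and 44 in trophoblast cells, where 20 were higher and 1 lower. Rpa3, a subunit of the single-stranded DNA binding complex, was at 21.1 and 88.7 CPM in endoderm, 39.2 and 142 in epiblast, and 31.7 and 148 in trophoblast. The linker histone gene Hist1h1b was at 112 and 38.8 CPM in endoderm, 284 and 110 in epiblast, and 208 and 78.5 in trophoblast. The 2183 endoderm genes with the shortest span (up to 11.7 kb) and their counterparts in the other lineages had median log2 ratios of 0.04, 0.04 and 0.06 in endoderm, epiblast and trophoblast, and those with the longest span (61.1 kb or more) had -0.17, -0.20 and -0.24. The part of gene span in the results below was not tested.

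The genes with the highest ratios were chosen by a fixed rule of level (50 CPM or more at the higher stage) and of guard against RNA from other cells. Rbp4, which carries retinol in plasma, was at 5.5 CPM [4.62, 6.5] at E4.75 and 55.4 [52.8, 58.1] at E5.0, 10.1-fold higher [8.45, 12.1]. It lies on the reverse strand of GRCm38 chromosome 19 from 38116629 to 38125281. In epiblast and trophoblast cells it was at 1.14 CPM or less at both stages. Thinned to 8000 UMIs per cell to even out the depth, 4.90% [3.38, 6.85] of endoderm cells at E4.75 and 27.1% [24.99, 29.3] at E5.0 had an Rbp4 UMI. The trophoblast cells had 0.238% and 1.32%.

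Nrk, an X-linked kinase gene of extraembryonic tissues, was at 49.8 CPM [47.1, 52.7] at E4.75 and 218 [213, 223] at E5.0, 4.37-fold higher. Thinned, 21.6% of endoderm cells had an Nrk UMI at E4.75 and 60.7% at E5.0, against 4.52% and 6.23% of trophoblast cells. Efna5, a membrane-bound ligand of Eph receptors, was at 22.4 and 97.1 CPM and in 9.49% and 29.5% of thinned cells. It was also higher in epiblast, at 42.9 and 71.4 CPM. Bex4, an X-linked gene, was at 142 and 409 CPM, with 134 and 314 in epiblast. Igfbp4, which binds insulin-like growth factors outside cells, was at 18.3 and 62.3 CPM. Cdh2 (N-cadherin), a cell adhesion receptor, was at 56.8 and 150 CPM in endoderm, while in epiblast it was at 36.6 and 18.0.

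The lowest ratio belonged to Nrg2, a ligand of ERBB receptors, at 76.2 CPM [72.8, 79.7] at E4.75 and 9.92 [8.83, 11.1] at E5.0, 7.68-fold lower [6.79, 8.71]. An Nrg2 UMI was found in 33.5% of thinned cells at E4.75 and 6.05% at E5.0. Its size depended on the parietal criterion, and with that criterion dropped Nrg2 was 2.40-fold lower. Cdh4 (R-cadherin), another classical cadherin, was at 324 CPM [317, 331] and 104 [101, 108], 3.11-fold lower, and was found in 80.7% and 43.0% of thinned cells. In epiblast Cdh4 was at 215 and 123 CPM. Cdh2 and Cdh4 thus differed between the stages in opposite directions in the same sets of cells.

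Of the other genes among the 12 lowest, Has2, the hyaluronan synthase, was at 365 and 166 CPM, 2.20-fold lower [2.12, 2.28]. Hspg2 (perlecan), a heparan sulfate proteoglycan of basement membranes, was at 151 and 61.8 CPM, 2.45-fold lower [2.31, 2.59]. Hs6st3, which sulfates heparan chains, was at 116 and 46.2 CPM. Gmppb, which makes the mannose donor for glycoproteins, was at 52.7 and 18.2 CPM. Without the parietal criterion Has2 was 1.92-fold lower and Hspg2 1.76-fold lower. Dip2c, Cmip, Ubash3b, Nhs and Zfp704 were 2.41- to 2.53-fold lower in endoderm, and Zfp704 was as low in epiblast (log2 ratio -1.15 against -1.13). In trophoblast Nhs and Cmip were lower too, with log2 ratios of -0.92 and -0.81.

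**Figure D1:**
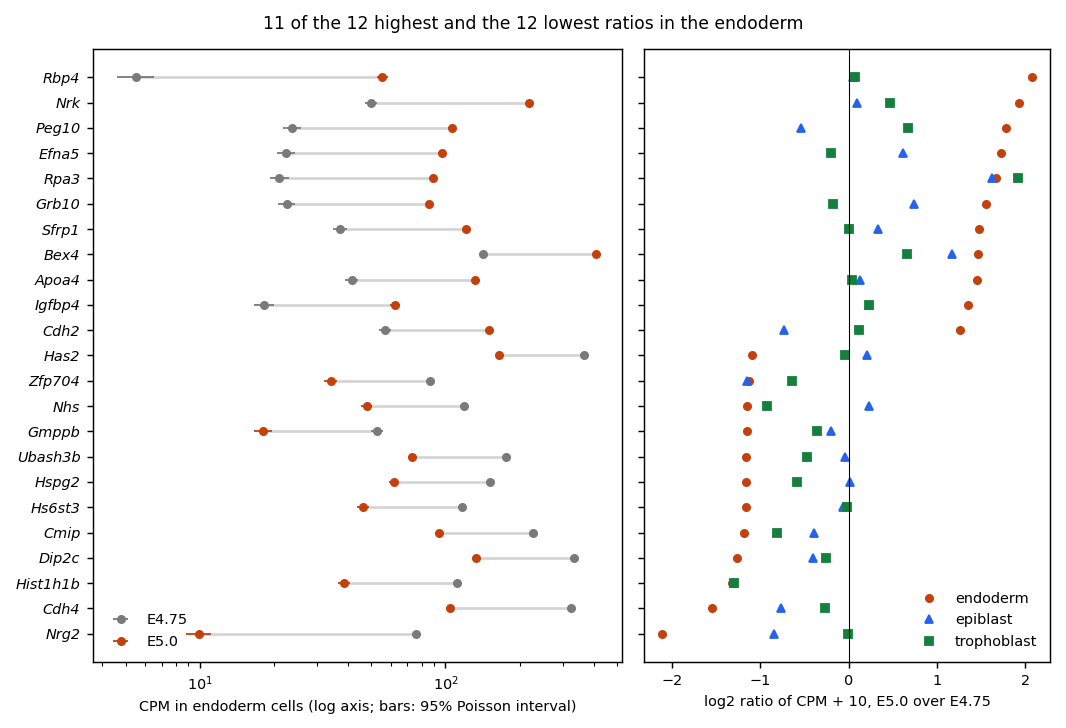
The left panel plots CPM in endoderm cells at E4.75 (grey) and E5.0 (orange) on a log axis for 11 of the 12 highest and the 12 lowest ratios, with 95% Poisson intervals as bars. The right panel plots the log2 ratio of CPM + 10 in endoderm, epiblast and trophoblast cells, where Rpa3 and Hist1h1b have like values in all the lineages and Nrg2 and Rbp4 do not. A gene far below 10 CPM in a lineage, as Rbp4 in epiblast and trophoblast, lies near 0 there because of the pseudocount.

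Secreted carrier proteins were read from a list of 13 genes, of which 8 reached 10 CPM. Of these, 5 were at least 2-fold higher and none lower, against 1.5% of all genes tested, but all 5 (Rbp4, Trf, Afp, Fgb and Spp2) reached that level at E5.0 only. The 3 at 10 CPM or more at both stages had a median log2 ratio of -0.15, and none was 2-fold different. Transferrin (Trf), the iron carrier, was at 6.51 and 27.7 CPM. Afp, Fgb and Spp2 stayed under the 20 CPM required for naming and are given here because their values were seen. Afp, the fetal counterpart of albumin, was at 2.49 CPM [1.91, 3.19] and 19.2 [17.7, 20.8], 7.71-fold higher, and was found in 1.68% and 10.8% of thinned cells. The Afp fold had an interval of [5.93, 10.2] over 62 counts at E4.75. It was 4.70-fold with the epiblast limit lowered from 5 to 2. In thinned cells it was 15.2-fold, over fewer E4.75 counts than these 62. Fibrinogen beta (Fgb) was at 5.62 and 20.0 CPM. Spink1, a trypsin inhibitor and the only abundant member, was at 1007 and 1536 CPM, 1.53-fold higher. Cpn1, a carboxypeptidase subunit, was at 30.7 and 19.5 CPM, and S100g, a calcium binder, at 13.7 and 11.4. Albumin was not detectable at E4.75 and had 1 UMI at E5.0.

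The lipoprotein list had 10 of 14 members at 10 CPM or more, of which 3 were at least 2-fold higher and none lower, with a median log2 ratio of 0.37. At 10 CPM or more at both stages, 2 of 8 were 2-fold higher, against 0.820% of all such genes, with a median of 0.29. The 6 members measured in epiblast had a median of -0.39 and the 5 in trophoblast of -0.03. Apoa4, an apolipoprotein of chylomicrons and HDL, was at 41.5 CPM [39.0, 44.1] and 132 [128, 136], 3.17-fold higher [2.96, 3.4]. It was found in 26.0% of thinned endoderm cells at E4.75 and 60.0% at E5.0, and in 0.238% and 0.599% of trophoblast cells. Apom, which binds sphingosine phosphate in HDL, was at 179 and 435 CPM, 2.43-fold higher. Apoa2, another HDL protein, was at 3.17 and 26.3 CPM. Apoe, an apolipoprotein ligand of the LDL receptor family, was at 710 and 1204 CPM, and at 37.0 and 76.2 in trophoblast. Mttp, which loads lipid onto apolipoprotein B, was 1.22-fold higher, and the export GTPase Sar1b and the HDL receptor Scarb1 were at 1.01- and 1.03-fold.

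The promoter of Rbp4 is shown because forkhead proteins are known regulators of liver-type carrier genes. The 8 genes searched were chosen for being higher at E5.0, and a part of forkhead proteins in that was not tested. RefSeq (GRCm38.p6) promoter sequences were found for 7 of the 8 higher carrier and apolipoprotein genes. Capitals mark a forkhead motif (TGTTTAC), searched on both strands. Of all 32851 RefSeq promoters of 300 bases, 3.65% hold it. The 250 bases before the start are given for Rbp4 (chr19:38125322-38125571, reverse strand, motif on the opposite strand at base -241).
Rbp4: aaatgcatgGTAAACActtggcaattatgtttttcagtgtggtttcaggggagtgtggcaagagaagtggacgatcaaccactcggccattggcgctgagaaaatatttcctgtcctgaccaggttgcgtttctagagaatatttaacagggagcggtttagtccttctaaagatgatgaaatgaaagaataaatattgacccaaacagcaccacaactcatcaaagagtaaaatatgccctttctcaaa

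Among the 7 genes, Rbp4 and Apoa2 had 1 of their promoters with TGTTTAC, whereas Afp, Fgb, Spp2, Apoa4 and Apom did not hold it in these 300 bases. A match is a description of the letters. Of the forkhead transcripts on the list of transcription factors, Foxa2 was at 151 and 176 CPM, Foxa1 at 1.00 and 13.3 and Foxq1, the most abundant of these 3, at 451 and 335. Hnf4a, a nuclear receptor of liver and visceral endoderm, was at 220 and 131 CPM, 1.68-fold lower at E5.0 [1.61, 1.75].

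Of 14 measured transcription factors on a list of 17, 2 were at least 2-fold higher and none lower, with a median of 0.11. Of the 13 at 10 CPM or more at both stages, 1 was 2-fold higher, against 0.820% of all such genes. Foxa1, a forkhead factor, was 13.3-fold higher [8.86, 20.8] over 25 counts at E4.75, and 8.28-fold with the epiblast limit at 2. A Foxa1 UMI was found in 0.766% and 9.93% of thinned cells. It was found in none of 420 and 835 thinned trophoblast cells, with upper exact 95% limits of 0.874% and 0.441%, and without thinning in 0.464% and 0.117% of them. Prdm1, a zinc finger repressor, was at 10.1 and 21.9 CPM. Eomes, a T-box factor needed for anterior visceral endoderm, was at 187 and 282 CPM, 1.51-fold higher, while in epiblast and trophoblast it was lower (log2 ratios -0.53 and -0.46). Gata4, a founding endoderm factor, was at 525.2 and 326 CPM, 1.61-fold lower, and Gata6 at 217 and 204. Sox17 was at 43.2 and 59.4 CPM, and Sox7 at 80.1 and 72.0. Tbx3 was at 102 and 120 CPM, Maf at 132 and 148, and Klf6 at 150 and 159.

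The anterior visceral endoderm list had 10 of 12 genes at 10 CPM or more, of which 5 were at least 2-fold higher and none lower, with a median log2 ratio of 0.72 against -0.07 for all genes. For the 8 at 10 CPM or more at both stages, 4 were at least 2-fold higher, against 0.820% of all such genes. The homeobox gene Otx2 was at 42.5 CPM and 108, 2.54-fold higher [2.37, 2.72], with -0.03 on the log2 scale in epiblast. Goosecoid (Gsc), a homeobox repressor, was at 1.81 and 21.4 CPM, 11.9-fold higher [8.77, 16.4]. The secreted WNT antagonists Sfrp1 and Sfrp5 were at 37.2 and 121 CPM and at 15.6 and 37.3 CPM, and the WNT receptor gene Fzd5 was at 29.6 and 66.3 CPM. None of the 12 list genes reached 10 CPM in trophoblast at either stage, so the pseudocount holds their log2 ratios near 0 there. Otx2 was at 0.785 CPM in trophoblast at E4.75 and 2.69 at E5.0.

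Other anterior genes differed less or in the opposite direction. The NODAL antagonist Lefty1 was at 26.1 and 42.8 CPM, 1.64-fold higher [1.49, 1.80]. Lhx1, a LIM homeobox gene, was at 120 and 158 CPM. The WNT antagonist Dkk1 was at 63.6 and 62.2 CPM, 0.978-fold [0.914, 1.05]. Hhex, a homeobox gene taken as an early anterior marker, was at 70.2 CPM and 46.0, 1.52-fold lower [1.42, 1.64]. Hesx1 was at 9.52 and 14.3 CPM. The NODAL and BMP antagonist Cer1 stayed under 10 CPM, with 11 counts (0.442 CPM) at E4.75 and 96 (3.21 CPM) at E5.0, 7.26-fold higher [3.88, 15.0]. Its ratio in thinned cells, 21.7-fold, rested on fewer E4.75 counts than these 11 and gives no reliable size.

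The genes at least 2-fold higher by CPM were found in larger shares of thinned cells at E5.0, which was nearly given, since the counts are the same. Otx2 was found in 20.2% [17.2, 23.5] of endoderm cells at E4.75 and 40.9% [38.5, 43.3] at E5.0, and Sfrp1 in 18.2% and 39.9%, against 0.952% to 2.62% in trophoblast cells. Without thinning the Otx2 shares were 40% and 52.1% and the Sfrp1 shares 44.5% and 49.7%. Unthinned, Gsc was at 5.26% and 20.4% and Sfrp5 at 34.1% and 35.5%, whereas Fzd5 was lower at E5.0, at 54.0% and 48.9%. Gsc was found in 1.99% [1.06, 3.38] and 12.5% [10.9, 14.2]. Cer1 was found in 2 of 653 cells at E4.75 (0.306% [0.0371, 1.10]) and 51 of 1652 at E5.0 (3.09% [2.31, 4.04]), and in none of the trophoblast cells. Hhex was found in 42.3% [38.4, 46.2] and 29.4% [27.2, 31.7], and Dkk1 in 34.6% and 35.5%. Thinning left out 12 and 132 endoderm cells with under 8000 UMIs.

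**Figure D2:**
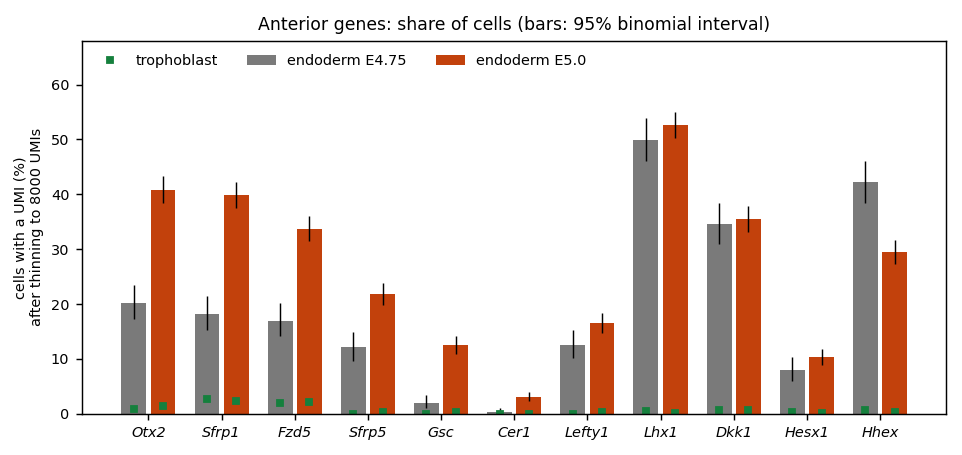
Bars give the percentage of endoderm cells with a UMI of each anterior gene after thinning to 8000 UMIs, at E4.75 (grey) and E5.0 (orange), with 95% binomial intervals, and green squares give trophoblast cells. Otx2, Sfrp1, Fzd5, Sfrp5 and Gsc stand higher at E5.0, Lhx1 and Dkk1 overlap, and Hhex stands lower.

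The anterior transcripts were unevenly shared among cells at both stages. At E4.75 Sfrp1 was found in 37.1% of 132 cells with Otx2 and 13.4% of 521 without, and Fzd5 in 27.3% and 14.4%. At E5.0 Lefty1 was found in 37 of the 51 cells with Cer1 (72.5% [58.3, 84.1]) and in 14.7% of the 1601 without it. Sfrp1 was found in 92.2% and 38.2% of these. Of the 675 cells with Otx2, 68.6% had Sfrp1 and 53.2% had Fzd5, against 20.1% and 20.3% of the 977 without Otx2. Of the carriers, Rbp4 was found in 36.4% of cells with Otx2 and 20.7% of cells without, and Apoa4 in 60.3% and 59.8%. The imprinted gene Peg10 was found in 38.1% and 40.5%. At E4.75 Apoa4 was found in 45.5% of 132 cells with Otx2 and 21.1% of 521 without. These shares come from 1 library each and describe its cells.

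Summed levels per thinned cell were also compared. Anterior genes summed to a median of 3 UMIs at both stages, but the upper quartile was 5 at E4.75 and 8 at E5.0, and the 95th percentile 9 and 19. Cells with none were 11.5% and 12.3%. The anterior sums thus differed in the upper part of the cells and not in the median. The carrier list had medians of 8 and 13 UMIs, but Spink1 alone gave 1007 of its 1076 CPM at E4.75 and 1536 of its 1705 at E5.0. With Spink1 left out, a choice made after its level was seen, the medians were 0 and 1 UMI, the 95th percentiles 2 and 5, and 58.8% and 39.2% of cells had none. The lipoprotein list had medians of 12 and 19 UMIs and lower quartiles of 9 and 13. Without Apoe, which gave 710 of its 1451 CPM and 1204 of its 2398, the medians were 6 and 9 and the lower quartiles 4 and 7.

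**Figure D3:**
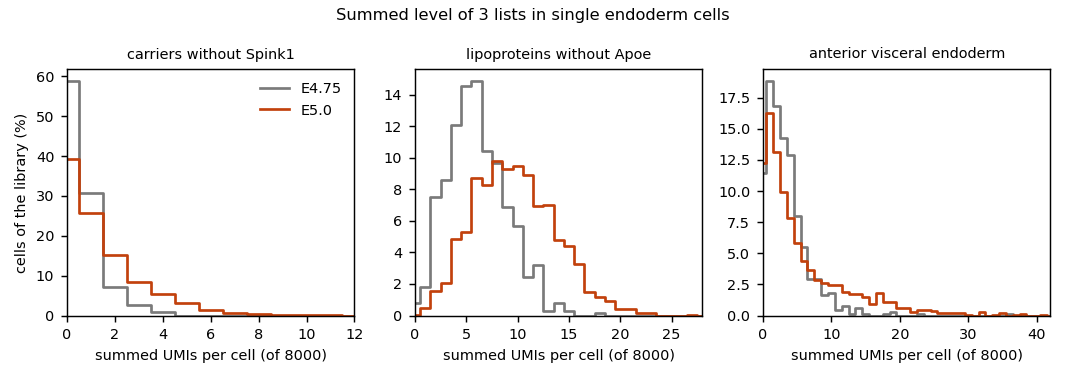
Each line gives the percentage of endoderm cells (vertical axis) with a summed UMI count (horizontal axis) of the carrier list without Spink1, the lipoprotein list without Apoe and the anterior list, after thinning to 8000 UMIs, at E4.75 (grey) and E5.0 (orange). The lipoprotein line sits to the right at E5.0, with a median of 9 against 6, the remaining carriers are at 0 in 58.8% and 39.2% of cells, and the anterior line keeps its median of 3 with a longer right tail.

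Signalling genes were read from pathway lists. The BMP list had 13 of 15 members measured, of which 3 were at least 2-fold higher and none lower, with a median of 0.54 against -0.07 in epiblast and -0.23 in trophoblast. For the 11 at 10 CPM or more at both stages the median was 0.22, and 1 was 2-fold higher, against 0.820% of all such genes. Msx2, a homeobox target of BMP, was at 8.43 and 31.2 CPM, 3.70-fold higher [3.18, 4.31], and was found in 6.43% and 21.8% of thinned cells. The pseudoreceptor Bambi was at 18.7 and 38.8 CPM and the signal transducer Smad1 at 60.5 and 100.5. The target Id3 was at 61.8 and 117 CPM, with a log2 ratio of 0.82 in endoderm and 0.83 in epiblast. The ligand gene Bmp2, named after its values were seen, was at 3.57 and 18.4 CPM.

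The WNT list had 11 of 16 measured, with 4 at least 2-fold higher and none lower and a median of 0.13. Of the 10 at 10 CPM or more at both stages, 3 were 2-fold higher, against 0.820% of all such genes, and the median was 0.09. The 4 higher were Sfrp1, Sfrp5, Fzd5 and Sp5, a WNT target at 5.58 and 20.1 CPM that reached 10 CPM at E5.0 only. Tcf7l1, a repressor of WNT targets, was at 124 and 89.6 CPM, with log2 ratios of -0.43, -0.50 and -0.75 in endoderm, epiblast and trophoblast. The NODAL list had 11 of 15 measured, none of them 2-fold different, and a median of -0.02. The co-receptor gene Cfc1 was at 29.6 and 44.0 CPM. The FGF and ERK list had 16 of 17 measured, none 2-fold different, with Fgf10, a ligand gene, at 454 and 254 CPM, Fgf8 at 53.6 and 97.1, Dusp4, a phosphatase of ERK, at 46.6 and 25.7 and the feedback inhibitor Spry1 at 14.8 and 27.8. In epiblast Fgf8 had a log2 ratio of 0.75 and Dusp4 of -0.85, against 0.75 and -0.66 in endoderm.

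Imprinted genes, expressed from 1 parental copy, had 12 of 19 measured, of which 5 were at least 2-fold higher and none lower, with a median of 0.60 against -0.20 in epiblast and 0.10 in trophoblast. Of the 10 at 10 CPM or more at both stages, 3 were 2-fold higher, against 0.820% of all such genes, and the median was 0.42. Peg10, a retrotransposon-derived gene needed for the placenta, was at 23.7 CPM [21.9, 25.7] and 106 [102, 110], 4.47-fold higher [4.09, 4.89]. It lies on GRCm38 chromosome 6 from 4747306 to 4760517. Peg10 was found in 10.1% and 39.5% of thinned endoderm cells, and in 40% and 53.3% of trophoblast cells, where its CPM was 81.6 and 136. Its neighbour Sgce was at 4.26 and 16.8 CPM and Mest, a hydrolase gene, at 2.29 and 18.5, both named after their values were seen. Grb10, a growth-restraining adaptor, was at 22.6 and 86.1 CPM, 3.81-fold higher, with 23.6 and 46.1 in epiblast and 129 and 113 in trophoblast. Phlda2, a placental growth gene, was at 10.4 and 33.8 CPM, 3.26-fold higher, and was higher in trophoblast too (log2 ratio 1.46). With the epiblast limit at 2 Phlda2 was 1.23-fold higher, and in cells of 10000 to 40000 UMIs 8.70-fold.

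The epithelial list had 19 of 21 measured, all 19 at 10 CPM or more at both stages, with none 2-fold lower and a median of 0.20. Of these, 3 were at least 2-fold higher, against 0.820% of all genes at that level at both stages. Beside Cdh2 these were the keratin pair Krt8 and Krt18, the filament proteins of simple epithelia, at 57.1 and 139 CPM and at 63.8 and 146. Krt8 was found in 24.8% [21.5, 28.3] and 57.1% [54.7, 59.5] of thinned endoderm cells, and in 97.6% and 89.1% of trophoblast cells. Trophoblast markers were summed at 137 and 193 CPM in these endoderm cells. With trophoblast-marked cells left out the log2 ratios were 1.38 for Krt8 and 1.26 for Krt18, against 1.15 and 1.08 with them. With the epiblast limit at 2, Krt8 was 1.58-fold and Krt18 1.84-fold higher. Epcam, an epithelial adhesion gene, was at 146 and 229 CPM.

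Cholesterol synthesis genes had 21 of 22 measured, of which 2 were at least 2-fold higher and none lower, with 16 above 0 and a median of 0.39. All 21 were at 10 CPM or more at both stages, where 0.820% of all genes were 2-fold higher. The medians of the same genes were -0.33 in epiblast and 0.59 in trophoblast. Hmgcs1, which makes HMG-CoA, was at 111 and 232 CPM, 2.10-fold higher [2.01, 2.19], and Idi1, the isopentenyl isomerase, at 44.0 and 98.9, 2.25-fold. Insig1, which retains SREBP in the endoplasmic reticulum, was at 84.3 and 165 CPM. In trophoblast the log2 ratios of Hmgcs1, Idi1 and Insig1 were 0.82, 0.85 and 0.59. These genes are known targets of SREBP, whose sterol response element (CACNCCAC, in capitals below) is held by 6.24% of all promoters. Promoters were found for all 3 genes, of which Hmgcs1 (chr13:119690101-119690350, forward strand, motif at base -136) and Insig1 (chr5:28071162-28071411, forward strand, motif on the opposite strand at base -9) held it and Idi1 did not.
Hmgcs1: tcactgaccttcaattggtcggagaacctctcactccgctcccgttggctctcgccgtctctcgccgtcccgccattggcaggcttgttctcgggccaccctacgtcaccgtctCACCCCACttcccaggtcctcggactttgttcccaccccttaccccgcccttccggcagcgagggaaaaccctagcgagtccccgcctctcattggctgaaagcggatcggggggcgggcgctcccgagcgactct
Insig1: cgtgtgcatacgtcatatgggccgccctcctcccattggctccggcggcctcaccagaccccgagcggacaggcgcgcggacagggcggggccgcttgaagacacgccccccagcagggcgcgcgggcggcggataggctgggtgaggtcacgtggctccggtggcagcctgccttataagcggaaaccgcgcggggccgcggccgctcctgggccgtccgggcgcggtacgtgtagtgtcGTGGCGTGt

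The endocytic list had 14 of 15 measured, with 1 higher and none lower and a median of -0.13. All 14 were at 10 CPM or more at both stages, where 0.820% of all genes were 2-fold higher. Fcgrt, the neonatal Fc receptor that carries immunoglobulin and albumin, was at 27.8 and 67.2 CPM, 2.42-fold higher [2.22, 2.64]. The chaperone Lrpap1, which helps megalin fold, was at 706 and 440 CPM and the early endosome tether Eea1 at 132 and 75.5. Lrpap1 was lower in epiblast too (log2 ratio -0.70), and Eea1 in trophoblast (-0.65). All 20 lysosome genes were measured, with none higher and 1 lower (Scarb2, a lysosomal membrane protein chosen after its values were seen, at 16.2 and 7.12 CPM), and a median of 0.11. Of the 19 at 10 CPM or more at both stages, none was 2-fold different. Cathepsins Ctsh and Ctsb were at 252 and 411 CPM and at 570 and 854. Of 20 measured transporters, all at 10 CPM or more at both stages, 1 was 2-fold higher, against 0.820% of all such genes. It was Slc2a2 (the glucose transporter GLUT2), at 14.3 and 48.0 CPM and in 9.49% and 29.4% of thinned cells. The monocarboxylate carrier Slc16a1 was at 549 and 944 CPM.

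Primitive endoderm genes had 12 of 13 measured, with none higher and 2 lower and a median of -0.22. Of the 10 at 10 CPM or more at both stages, 1 was 2-fold lower, against 0.734% of all such genes. The protease Htra1 was at 70.8 and 34.6 CPM and P4ha2, a collagen prolyl hydroxylase chosen after its values were seen, at 18.996 and 7.38. Thus P4ha2 reached 10 CPM at E4.75 only. The receptor Pdgfra, a textbook primitive endoderm marker, was at 104 and 87.2 CPM and is given here although outside the rule for names. Matrix genes outside the rule had 13 of 15 measured, with Hspg2 alone 2-fold lower and none higher. All 13 were at 10 CPM or more at both stages, where 0.734% of all genes were 2-fold lower. Nid1 was at 39.6 and 51.8 CPM, Lama5 at 42.2 and 57.3 and Sparc at 1323 and 1057. The parietal list had 5 of 10 measured and none 2-fold different, with Pth1r, the parathyroid hormone receptor, at 140 and 80.3 CPM.

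In the lists of cell state no member was 2-fold different at S phase (median 0.21), G2 and M phase (-0.04), glycolysis (0.10), oxidative phosphorylation (0.21), ribosome biogenesis (-0.18), p53 targets (0.10) or immediate early genes (0.20). Hk2, a hexokinase, was at 311 and 165 CPM in endoderm, with log2 ratios of -0.88, -0.55 and -1.10 in endoderm, epiblast and trophoblast. Of all genes tested, 1.5% were at least 2-fold higher and 1.35% lower. Hypoxia genes had 1 of 8 measured higher (Ndrg1, at 7.03 and 15.4 CPM, chosen after its values were seen) and a median of 0.35. Stress response genes had 1 of 10 measured higher (Vldlr, at 5.62 and 12.7 CPM, likewise) and a median of -0.17, with the tRNA synthetase genes Sars and Nars at 158 and 88.5 CPM and at 230 and 138. Naive pluripotency genes had 1 of 6 measured higher (Dppa3, at 6.31 and 18.6 CPM, likewise) and a median of -0.12. Ndrg1, Vldlr and Dppa3 each reached 10 CPM at E5.0 only. In their lists no member at 10 CPM or more at both stages was 2-fold different, where 0.820% of all such genes were higher and 0.734% lower.

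**Figure D4:**
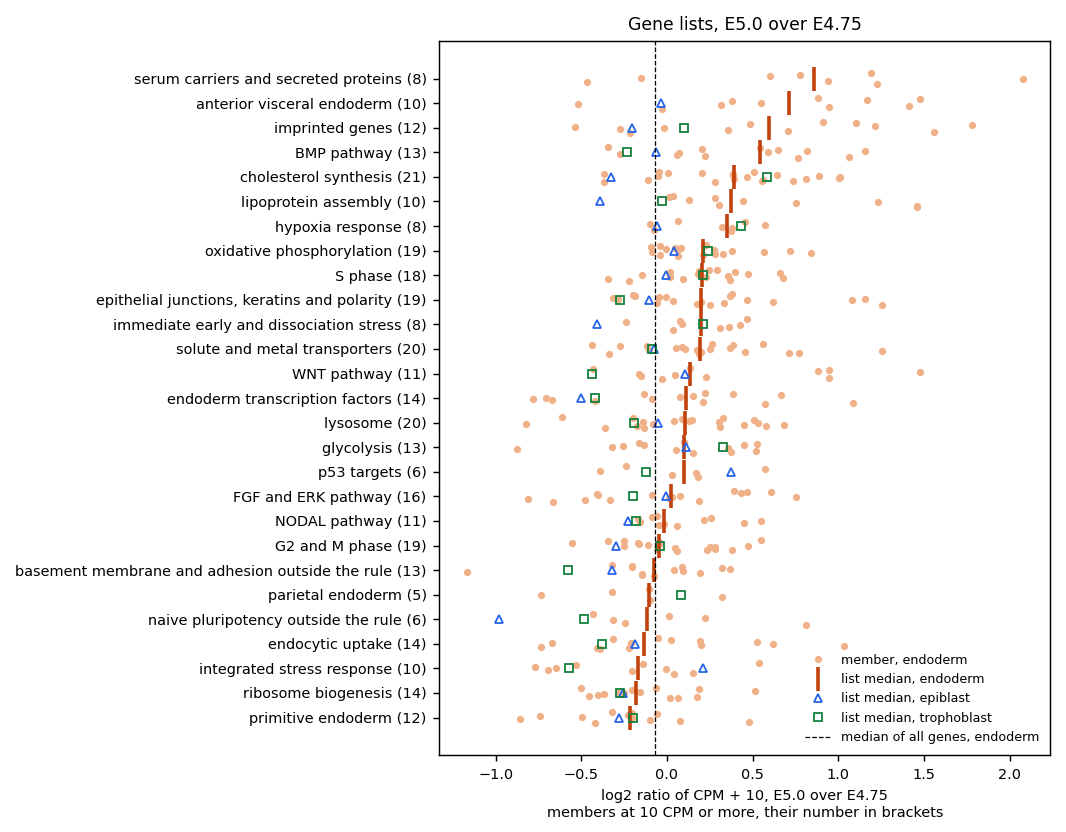
Each row is a gene list with the log2 ratio of CPM + 10 (E5.0 over E4.75, horizontal axis) of its members in endoderm cells as points, their median as an orange bar, and the medians in epiblast and trophoblast cells as triangles and squares where at least 3 members were measured. The carrier, anterior, imprinted and BMP medians (0.86, 0.72, 0.60 and 0.54) include members that reached 10 CPM at E5.0 only, without which they are -0.15, 0.72, 0.42 and 0.22, and the dashed line marks the median of all genes at -0.07.

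The same rule applied to neighbouring libraries found 164 endoderm cells at E4.5, 1186 at E5.25 and 1563 at E5.5, where the E4.5 and E5.5 cells had been filtered. The dams at E4.5 were 4 weeks old, against 7 weeks from E4.75 to E5.5, so dam age and stage cannot be told apart between E4.5 and E4.75. Rbp4 was at 1.74, 5.5, 55.4, 104 and 112 CPM from E4.5 to E5.5, and Afp at 0.435, 2.49, 19.2, 66.7 and 160. Otx2 was at 14.3, 42.5, 108, 133 and 134 CPM over the same libraries, and Gsc was highest at E5.25 with 24.7. Of the 12 highest genes, all 12 stood higher at E5.25 than at E5.0, and 9 stood lower at E4.5 than at E4.75. Of the 12 lowest, 8 stood lower and 4 higher at E5.25 than at E5.0, and all 12 were below their E4.75 level at E5.25. At E4.5, 10 of these 12 stood lower than at E4.75. Nrg2 was at 57.0, 76.2, 9.92, 8.30 and 4.02 CPM, and Hspg2 at 89.1, 151, 61.8, 44.8 and 45.1.

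**Figure D5:**
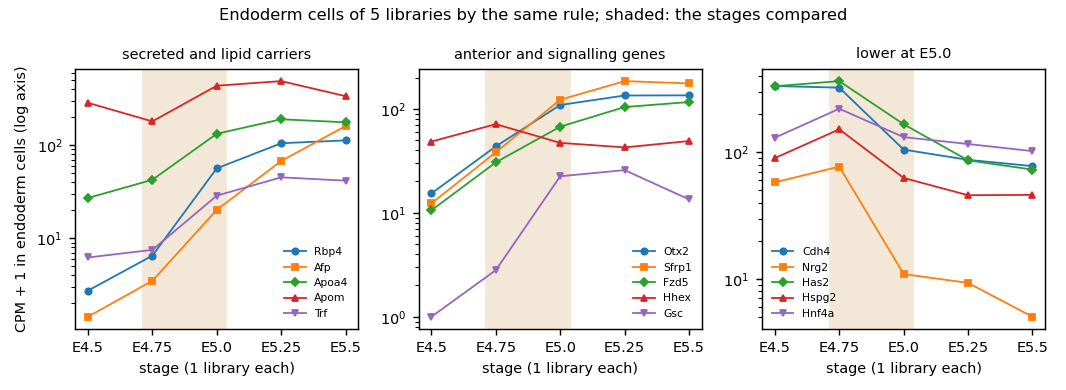
Lines give CPM + 1 (log axis) in endoderm cells of 5 libraries, 1 per stage, for carrier genes, anterior genes and genes lower at E5.0, with the compared stages shaded. Rbp4, Afp and Gsc climb most steeply inside the shaded span, and Nrg2 drops there from 76.2 to 9.92 CPM.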

How the data were processed

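The deposited matrices give raw UMI counts, as whole numbers, for every gene in every barcode. Their headers name Cell Ranger 7.1.0. The submitters' processing notes name the builds hg38, mm10 and GRCm38, and do not say what hg38 was for. Gene positions came from GENCODE M21 (32235 of 32285 identifiers matched). Each sample's stage was taken from its label. Counts of the endoderm cells were summed per library and divided by their total. A gene was measured at 10 CPM or more at either stage, and called higher or lower at 2-fold by CPM. Ratios are log2 of CPM + 10, a pseudocount that understates the change of low genes. CPM intervals are exact Poisson, ratio intervals exact conditional binomial and shares Clopper-Pearson. To compare shares of cells, each cell was thinned to 8000 UMIs.

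Epiblast cells had an epiblast sum of at least 10 and a receptor sum under 5. Trophoblast cells had Elf5, Tfap2c, Hand1, Ascl2, Rhox6 and Rhox9 summing to at least 5, and both other sums under 5. Genes were named if they had 1 of the 12 highest or 12 lowest ratios at 50 CPM or more at the higher stage and 2-fold different. They also had to reach 0.2 of the level in epiblast and trophoblast cells, with mitochondrial, ribosomal protein, haemoglobin and model genes left out. Added to these were up to 4 members of each list with the widest ratios at 20 CPM or more, and all measured anterior and transcription factor genes. The members and lists were chosen with earlier results of these data known. Some genes, among them 1 of the 12 highest ratios, are counted in the lists and not reported here by name. Doublets were left in, and Scrublet scores were used in an alternative. The counting of summed ratios was tested on simulated data. Python 3.11.15, numpy 2.4.6, scipy 1.17.1, pandas 2.3.3 and scanpy 1.11.5 were used.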

Additional observations from a re-analysis of the deposited data

Results flagged for a closer look

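Lcp1, which codes for an actin-bundling protein, differed in opposite directions in endoderm and trophoblast cells of the same libraries. In endoderm it was at 43.7 CPM at E4.75 and 88.4 at E5.0 (log2 ratio 0.87), and in trophoblast at 161 and 80.6 (log2 ratio -0.92). It was picked out because each lineage moved the opposite way in its only pair of libraries, and the difference was not tested.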

How the results depend on the processing

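No paired analysis was possible because each stage is 1 library, and for the same reason no library could be left out. The 17 alternatives changed cell criteria, doublets, depth, scaling, pseudocount and the minimum level. The number of genes at least 2-fold higher (131) was 424 with a minimum of 1 CPM and 42 with 50 CPM. The number lower (118) was 575 and 32 with those minimums and 75 with median-of-ratios scaling. The endoderm share at E4.75 (26.1%) was 7.06% with the epiblast limit at 2, 41.9% with no parietal criterion and 16.3% with laminin and collagen at most 0.5 of the carrier sum (the alternative added after seeing the data). At E5.0 (32.4%) these were 19.9%, 42.4% and 29.0%, and 31.0% with trophoblast-marked cells left out. The share at E5.0 was above that at E4.75 in these, but without the parietal criterion the shares were nearly equal, at 42.4% and 41.9%. The gap thus depended on that criterion. Of the 159 genes named, 67 were at least 2-fold different and all 67 kept their direction under every alternative run, while 7 genes under 2-fold changed sign (Fos, Klf6, Dkk1, Gata6, Srgn, Sox7 and Lifr). A kept direction was nearly given for the 67, since they were 2-fold different in the same counts. Some fell under 2-fold, such as Phlda2 (1.23) and Krt8 (1.58) with the epiblast limit at 2. Hspg2 was 1.76-fold lower without the parietal criterion. The median of 18 of 27 lists kept its sign. The cause of these shifts was not tested, apart from the minimums, which change how many low genes are counted.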

Other observations

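The genes named here were picked after their values were seen and stand for no group. Cyp26a1, which breaks down retinoic acid, was at 118 CPM at E4.75 and 289 at E5.0, 2.44-fold higher, with a log2 ratio of 1.22. It was at 8.93 and 41.7 CPM in trophoblast, a log2 ratio of 1.45. In epiblast it was at 0.667 and 2.20 CPM, too low for that scale to show a difference. Mixl1, a homeobox gene of endoderm and mesoderm, was at 20.4 and 61.3 CPM, and was found in 12.1% and 30.8% of thinned endoderm cells against 1.67% and 1.44% of trophoblast cells. At E5.0 it was found in 36.1% of cells with Eomes and 11.9% of cells without. The WNT amplifier Rspo3 was at 10.7 and 36.7 CPM, the KIT ligand gene Kitl at 14.8 and 41.6, the secreted kinase gene Pkdcc at 3.13 and 30.5 and Sox4 at 4.90 and 38.9. Selenoprotein P (Selenop), a selenium carrier, was at 14.6 and 43.9 CPM, and the zinc transporter gene Slc39a5 at 15.8 and 46.9. The carbonic anhydrase genes Car4 and Car2 were at 209 and 450 CPM and at 123 and 258, and Mdk (midkine) at 156 and 332. In trophoblast the log2 ratios of Car2 and Mdk were 0.66 and 0.68, and in epiblast Mdk was at 0.67.

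Of genes lower at E5.0, Sec24d, a coat protein of vesicles leaving the endoplasmic reticulum, was at 148 and 66.8 CPM, the Golgi tether Golgb1 at 159 and 76.3 and the transcription factor gene Creb3l2 at 162 and 79.9. Derl3, a degradation factor of the endoplasmic reticulum, was at 43.4 and 15.0 CPM. The ribosome receptor Rrbp1 was at 884 and 479 CPM and Creld2 at 177 and 93.3, both under 2-fold. In epiblast the log2 ratios of Rrbp1, Creld2 and Creb3l2 were -0.82, -0.66 and -0.06, and in trophoblast -0.89, -0.14 and -0.73. The mitochondrial gene mt-Nd3 was at 2560 and 1310 CPM, with log2 ratios of -0.96 in endoderm, -1.41 in epiblast and -1.55 in trophoblast.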
